A study of Homo sapiens with 12 samples.

Results

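The CDKN2A-CDKN2B locus on 9p21 was examined through its 4 listed genes, CDKN2A, CDKN2B, CDKN2B-AS1 and MTAP, out of 58288 genes listed in the expression tables of 2 human T-cell acute lymphoblastic leukemia (T-ALL) lines. The genes were taken as the rows whose Ensembl identifiers map to these symbols, and all 4 were found in both tables. They were selected on their levels in HPB-ALL and KOPTK1 in these same tables, so the difference between the lines given for them is a description, without a test. HPB-ALL and KOPTK1 are established T-ALL cell lines. Each line had been infected with pLKO.1 lentivirus carrying an shRNA against SHQ1 (shSHQ1) or a control shRNA against GFP (shGFP), and kept in puromycin at 2 μg/mL for 48 h. There were 12 RNA-seq samples, 3 for each shRNA in each line, made from RNA depleted of ribosomal RNA.

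CDKN2A is one of the best-known tumor suppressor genes, and its loss by deletion is a common lesion of T-ALL. It has separate first exons for INK4A (p16), which inhibits CDK4 and CDK6 and so keeps RB active, and for ARF (p14), which restrains the ubiquitin ligase MDM2. CDKN2B encodes p15, a further CDK4 and CDK6 inhibitor. CDKN2B-AS1, also called ANRIL, is a long noncoding RNA antisense to CDKN2B that has been linked to Polycomb repression of the locus. MTAP encodes methylthioadenosine phosphorylase, the first enzyme of the methionine salvage pathway, and is often lost together with its neighbours.

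All values below are averages over the 6 libraries of a line, both shRNA groups together. The deposited average log2 CPM (reads of a gene relative to library size) was divided by the summed exon length on the linear scale, which gives an average RPKM. The tables name their libraries only by numbers, which no sample label explains. Per-library values, total counts, the spread between replicates and the response of the locus to SHQ1 shRNA were therefore not analysed here, and no value below carries an error. An average may mix libraries that differ at this locus or at other genes, so none of these values should be read as the level in each library of a line. The 2 tables were normalized separately.

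In the hg38 coordinates of the tables, all 4 genes lie on chromosome 9. MTAP (ENSG00000099810) spans 21802543 to 21937651 on the plus strand. CDKN2A (ENSG00000147889) spans 21967753 to 21995301 on the minus strand. CDKN2B-AS1 (ENSG00000240498) spans 21994791 to 22121095 on the plus strand, and CDKN2B (ENSG00000147883) lies within that span on the minus strand, from 22002903 to 22009363. CDKN2B-AS1 thus overlaps both inhibitor genes in the opposite direction. Its exons and those of CDKN2A shared 341 bases, which is 10.8% of the CDKN2A exon length and 8.53% of that of CDKN2B-AS1. The counting is not stated to use strand, so reads from these shared bases cannot be told apart between the 2 genes. Further rows of the annotation overlapped MTAP and CDKN2B-AS1 on the same strand. The row ENSG00000264545, which runs from MTAP to beyond CDKN2B, covered 460 exon bases of MTAP (3.56%) and 475 of CDKN2B-AS1 (11.9%). No exon of another row overlapped CDKN2B.

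The starts of these genes are shown as a description of the locus. The sequences are reference sequence, not read from either line, and any link to the difference between the lines was not tested. The 250 bases before each of 5 annotated starts, from RefSeq on GRCh38.p14, are given 5′ to 3′ on the strand of the gene. Capitals mark the GC box, GGGCGG or its reverse complement CCGCCC, the binding motif of SP1-type factors.
CDKN2A, ARF start, chr9:21995325-21995574, minus strand: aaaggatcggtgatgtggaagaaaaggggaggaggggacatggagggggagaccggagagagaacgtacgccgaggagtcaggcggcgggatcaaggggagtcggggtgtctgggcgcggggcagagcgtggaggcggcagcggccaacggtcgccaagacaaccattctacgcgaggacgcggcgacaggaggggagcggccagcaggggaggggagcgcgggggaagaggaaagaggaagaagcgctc
CDKN2A, INK4A start, chr9:21974858-21975107, minus strand: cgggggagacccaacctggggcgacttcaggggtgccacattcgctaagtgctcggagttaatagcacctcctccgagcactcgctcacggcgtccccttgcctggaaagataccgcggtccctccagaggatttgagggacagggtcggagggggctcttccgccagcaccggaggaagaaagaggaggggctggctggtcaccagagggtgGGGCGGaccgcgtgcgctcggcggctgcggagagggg
CDKN2B-AS1, chr9:21994541-21994790, plus strand: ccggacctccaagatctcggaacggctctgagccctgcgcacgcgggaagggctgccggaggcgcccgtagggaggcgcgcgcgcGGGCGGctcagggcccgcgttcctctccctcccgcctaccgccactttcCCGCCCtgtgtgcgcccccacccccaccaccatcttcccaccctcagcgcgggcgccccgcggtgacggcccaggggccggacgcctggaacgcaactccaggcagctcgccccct
CDKN2B, chr9:22009306-22009555, minus strand: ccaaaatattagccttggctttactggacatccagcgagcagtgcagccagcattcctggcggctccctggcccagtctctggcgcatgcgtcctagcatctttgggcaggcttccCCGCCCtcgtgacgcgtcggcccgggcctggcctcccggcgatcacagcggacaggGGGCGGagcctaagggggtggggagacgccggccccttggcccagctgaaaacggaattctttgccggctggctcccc
MTAP, chr9:21802386-21802635, plus strand: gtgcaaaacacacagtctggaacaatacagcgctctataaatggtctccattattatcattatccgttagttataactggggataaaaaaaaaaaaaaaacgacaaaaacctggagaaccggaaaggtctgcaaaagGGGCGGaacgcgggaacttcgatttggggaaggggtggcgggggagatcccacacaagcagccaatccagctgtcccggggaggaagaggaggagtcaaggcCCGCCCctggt

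The name ARF was given to the outer of the 2 annotated CDKN2A starts by position, and which transcript begins there was not checked. That start and the CDKN2B-AS1 start lie 533 bases apart on opposite strands and point toward each other, so transcripts from them would overlap there. The window before CDKN2B-AS1 was the richest in G and C of the 5, at 75.6%, above 90.7% of the 35116 windows of this length in the RefSeq table, and it held 31 CpG dinucleotides. Both CDKN2A windows reached 66.8% and that of CDKN2B 66.4%, against a median of 58% over all windows. MTAP stood apart with 50% and 11 CpG dinucleotides. A GC box was found on either strand in 42.6% of all windows. CDKN2B, CDKN2B-AS1 and MTAP had 2 each, the INK4A start had 1 and the ARF start had none. The MTAP window was the one window of the 5 with a TATAAA sequence and with a CCAAT sequence, which 10.7% and 32% of all windows held on either strand. A match of letters does not show that a factor binds there.

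On average, the locus was expressed in KOPTK1 and close to the bottom of the scale in HPB-ALL. The CDKN2A level was 3.02 average RPKM in KOPTK1 and 0.0629 in HPB-ALL, which is 2.09% of the KOPTK1 level. The CDKN2B level was 8.55 in KOPTK1 and 0.142 in HPB-ALL, or 1.66%. These are the genes of the cell cycle inhibitors, and both were lower in HPB-ALL by a similar factor, 48.0-fold for CDKN2A and 60.1-fold for CDKN2B. The antisense RNA CDKN2B-AS1 had a level of 7.97 in KOPTK1 and of 0.112 in HPB-ALL, or 1.40%. The MTAP level was 7.83 in KOPTK1 and 0.137 in HPB-ALL, or 1.75%. The noncoding RNA and the metabolic enzyme therefore stood at about the same fraction as the inhibitors. Summed over the 4 genes, the average was 177 CPM in KOPTK1 and 2.99 CPM in HPB-ALL, or 1.69%. In bulk RNA, fewer cells with a transcript and less transcript per cell cannot be told apart.

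**Figure D1:**
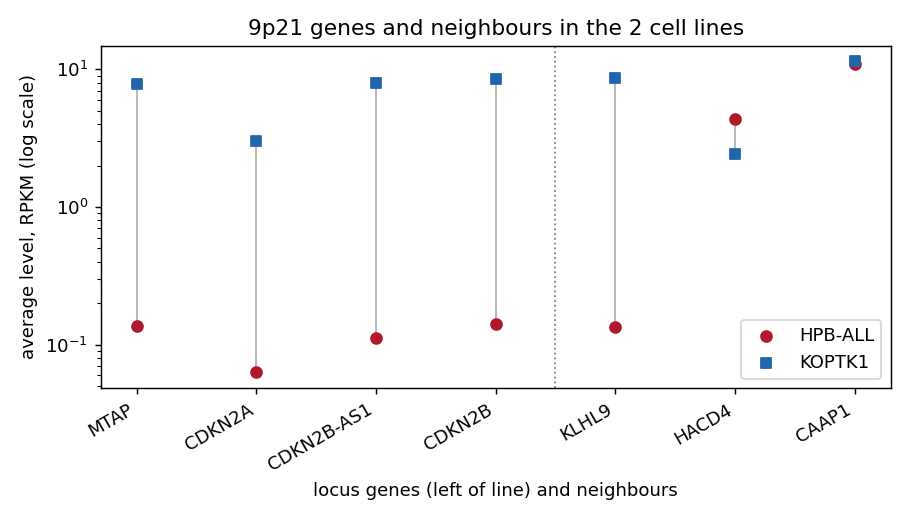
Average level in RPKM on a log axis in HPB-ALL (circles) and KOPTK1 (squares) for the 4 genes of the locus and for KLHL9, HACD4 and CAAP1, with 1 value per gene and line and no error bars. The 4 genes and KLHL9 lie between 0.0629 and 0.142 in HPB-ALL and between 3.02 and 8.58 in KOPTK1, whereas the HACD4 level was higher in HPB-ALL and the CAAP1 levels nearly coincide.

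The order of the levels per length in KOPTK1 was CDKN2B, CDKN2B-AS1, MTAP and CDKN2A. The first 3 were close, with CDKN2B at 1.07 times the CDKN2B-AS1 level and CDKN2B-AS1 at 1.02 times that of MTAP, and without a spread between libraries their order is not established. CDKN2A was set apart, at a level 2.83 times lower than that of CDKN2B. Among the 46253 genes above the lowest value in the KOPTK1 table, 79.0% had a level below CDKN2B and 63.0% a level below CDKN2A. The level of CDKN2B-AS1 was above 77.9% of genes and that of MTAP above 77.6%. Among protein-coding genes, CDKN2B stood above 62.2% and CDKN2A above 46.8%. These are mid-range levels, neither silent nor among the most abundant transcripts.

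In HPB-ALL the order was CDKN2B, MTAP, CDKN2B-AS1 and CDKN2A, at levels between 0.0629 and 0.142. The share of the 45124 genes above the lowest value that lay below them was 23.5% for CDKN2B, 23.0% for MTAP, 20.1% for CDKN2B-AS1 and 12.7% for CDKN2A. None of the 4 was at the lowest value of the HPB-ALL table, which 13164 genes shared. On the CPM scale, which is not per length, the MTAP average was 36.3 times that lowest value, CDKN2B 11.8 times, CDKN2B-AS1 9.15 times and CDKN2A 4.07 times. The remaining signal of these genes in HPB-ALL was thus low but above the lowest value listed. It may come from some of the 6 libraries rather than from each of them, so it does not show that HPB-ALL cells expressed the locus.

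The difference between the lines was set beside that of all genes with an average RPKM of at least 1 in either line. Of 25479 such genes, 304 (1.19%) were lower in HPB-ALL by 10-fold or more, and all 4 genes of the locus were among them. The rule that chose the 4 genes used these levels, so nothing is read from that count or from the ranks given below. On the log2 scale the HPB-ALL minus KOPTK1 difference was -5.58 for CDKN2A, -5.91 for CDKN2B, -6.16 for CDKN2B-AS1 and -5.84 for MTAP, against a median of -0.05 over the 25479 genes. CDKN2B-AS1 had the lowest difference of all these genes, CDKN2B ranked 7, MTAP ranked 12 and CDKN2A ranked 30 from the bottom. An average made with a prior count understates the fold of a gene with few reads, so these folds are more likely too small than too large.

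The low values in HPB-ALL were shared by KLHL9 and by rows within or across the spans of the 4 genes. From MLLT3 to CAAP1 the tables listed 90 rows, of which 26 had an average RPKM of at least 1 in KOPTK1. Among these, 12 were lower in HPB-ALL by 10-fold or more, including the 4 selected genes. Over all genes at an average RPKM of at least 1 in either line, a wider filter, the share was 1.19% (304 of 25479). The 26 rows entered through their KOPTK1 level, and the 10-fold limit bounds the percentages given below. Nothing is therefore read from this count. The stretch was defined by these 12 rows, from the start of KLHL9 at 21329671 to the end of CDKN2B-AS1 at 22121095, or 791 kb. Between KLHL9 and MTAP, only MIR31 and SNORD39 reached an average RPKM of at least 1 in KOPTK1. The values therefore do not show whether the low levels are continuous there. The 8 rows that are not among the 4 genes were KLHL9, the pseudogenes TUBB8P1 and UBA52P6, and 5 rows without a symbol in the name table. KLHL9, an adaptor of a CUL3 ubiquitin ligase that acts in mitosis, had a level of 8.58 in KOPTK1 and of 0.135 in HPB-ALL (1.57%). TUBB8P1 was at 2.70% and UBA52P6 at 3.24% of the KOPTK1 level. Over all 12 rows the HPB-ALL level was between 1.40% and 7.61% of that in KOPTK1, the highest being ENSG00000277653, a row near the end of CDKN2B-AS1. Of the 8 rows that are not among the 4 genes, only KLHL9 lies outside the spans of MTAP and CDKN2B-AS1. The others lie within or run across those spans, some sharing exon bases, and are not separate measurements.

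The stretch held 2 further rows at an average RPKM of at least 1 in KOPTK1, the genes of MIR31 and SNORD39. Both were at the lowest value of the table in HPB-ALL. Their exon lengths of 71 and 76 bases turn a near-minimal CPM into a level above 1, and in KOPTK1 they stood at 1.17 and 2.92 times the lowest CPM, so near the lowest value that no fold is given. Of all 32 rows in the stretch, 17 were at the lowest value in HPB-ALL and 6 in KOPTK1. Over all 58288 genes listed, 13164 were at the lowest value in HPB-ALL and 12035 in KOPTK1.

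Outside this stretch, several neighbours were expressed in both lines, among rows taken at an average RPKM of at least 1 in KOPTK1. On the side of MTAP, the closest row at an average RPKM of at least 1 in KOPTK1 was HACD4, an enzyme of very long chain fatty acid synthesis, which ended 298 kb before KLHL9. Its level was 4.33 in HPB-ALL and 2.41 in KOPTK1. FOCAD, a gene for a focal adhesion protein, was at 8.71 in HPB-ALL and 9.16 in KOPTK1, and MLLT3, a fusion partner of KMT2A in leukemia, was at 5.31 and 6.87. On the side of CDKN2B-AS1, the closest such row was CAAP1, an apoptosis-related gene that began 4720 kb away, with levels of 10.9 in HPB-ALL and 11.4 in KOPTK1. Of the 12 such rows outside the stretch, 7 lie within the spans of MLLT3 or FOCAD and are not separate measurements. The other 5 were MLLT3, FOCAD, HACD4, CAAP1 and the pseudogene H3P31. H3P31 lies within the span of CAAP1 and is not separate from it. Among these 5, the HPB-ALL level was between 62.2% (H3P31) and 179% of that in KOPTK1, with a median of 95.1%. Without H3P31 the lowest was MLLT3 at 77.3%. The span between CDKN2B-AS1 and CAAP1 therefore gave no information on where the low values end. DMRTA1, ELAVL2, IZUMO3 and TUSC1, which lie there, had levels of 0.0725 or less in KOPTK1.

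The interferon genes between HACD4 and MTAP gave no clear reading either. None of the 28 interferon rows reached an average RPKM of 1 in either line, and 16 were at the lowest value in HPB-ALL against 2 in KOPTK1. The counts over all 58288 genes listed were 13164 and 12035. IFNB1, the gene of interferon beta, was at 0.421 in HPB-ALL and at 0.389 in KOPTK1. IFNE was at 0.0386 and 0.125, and IFNA1 was at the lowest value in HPB-ALL and at 2.00 times the lowest CPM in KOPTK1. MIR31HG, the host transcript of MIR31, was at the lowest value in HPB-ALL and at 0.277 in KOPTK1. CDKN2A-DT, the divergent transcript listed for CDKN2A, was at the lowest value in both tables.

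On the whole short arm of chromosome 9, taken as rows ending before 43 megabases, 288 rows had an average RPKM of at least 1 in either line and their median log2 difference was -0.02. Of these, 16 were lower in HPB-ALL by 10-fold or more, the 12 rows of the stretch and 4 elsewhere. Over all 25479 genes the count was 304 (1.19%). The 4 elsewhere were DOCK8 at 1.54% of the KOPTK1 level, PTPRD at 2.11%, DOCK8-AS2 at 5.21% and PLIN2 at 6.39%. Such low values on 9p were therefore not limited to the stretch around CDKN2A. As they also occurred among all genes, the 4 rows elsewhere are not read as a feature of 9p.

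Genes on which the encoded inhibitors act, and others of the same pathway, were compared between the lines as RNA only. Of the 18 genes listed for the CDK, RB and MDM2 pathway, 17 had an average RPKM of at least 1 in either line, with a median log2 difference of -0.26. A level lower in HPB-ALL by 2-fold or more was found for 2 of the 17, beside 8.1% of all genes, and none was higher by 2-fold or more, beside 3.81%. CDK6, the kinase bound by p16 and p15, was among the most abundant, with levels of 219 in HPB-ALL and 262 in KOPTK1. CDK4 was at 55.9 and 44.6, and RB1, the tumor suppressor that these kinases inactivate, was at 125 and 132. Of the D cyclins, CCND3 was at 51.5 in HPB-ALL and 61.4 in KOPTK1, CCND2 was at 1.68 and 6.61, and CCND1 was at 0.152 and 0.183. E2F1, a transcription factor held by RB, was at 34.3 and 55.3.

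On the side of ARF, MDM2, the ubiquitin ligase that it restrains, had levels of 23.3 in HPB-ALL and 29.4 in KOPTK1. CDKN1A, which encodes the CDK inhibitor p21, was at 1.46 and 11.9, a log2 difference of -3.03. CCND2 and CDKN1A were the 2 genes past 2-fold. CDKN1C, which encodes the related inhibitor p57, was at 0.593 and 1.18. The other 3 CDK inhibitor genes of the list were at similar levels in the lines. CDKN2C, which encodes p18, was at 23.0 in HPB-ALL and 22.7 in KOPTK1, and CDKN2D, which encodes p19, was at 20.5 and 18.8. CDKN1B, which encodes p27, was at 29.9 and 30.9. In both lines the levels of CDKN2C and CDKN2D were thus above those of CDKN2A and CDKN2B.

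The Polycomb genes that are known to repress the locus were expressed in both lines. None of the 7 differed by 2-fold or more, which is near the shares over all genes of 8.1% lower and 3.81% higher, and their median log2 difference was -0.22. EZH2, the histone methyltransferase of the complex, had levels of 76.6 in HPB-ALL and 90.5 in KOPTK1, BMI1 was at 23.0 and 29.4, and CBX7 was at 2.10 and 1.87.

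Around MTAP, none of the 14 genes of methionine salvage and its connected steps differed by 2-fold or more, again near the 8.1% and 3.81% of all genes, with a median log2 difference of 0.17. MRI1, the enzyme that follows MTAP in the pathway, had levels of 4.80 in HPB-ALL and 8.35 in KOPTK1, and ADI1, a later enzyme, was at 18.7 and 10.9. MAT2A, which makes S-adenosylmethionine, was at 119 and 96.7. PRMT5, an arginine methyltransferase that the MTAP substrate inhibits, was at 40.8 in HPB-ALL and 24.3 in KOPTK1. Its partners WDR77 and RIOK1 had log2 differences of 0.20 and 0.24.

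The labelled cell type was checked with markers. Of 22 T-lineage markers 21 were matched and 20 had an average RPKM of at least 1 in either line. CD3D, a chain of the T-cell receptor complex, had levels of 295 in HPB-ALL and 301 in KOPTK1. Lower in HPB-ALL by 2-fold or more were 5 of the 20, beside 8.1% of all genes. CD8A was at 17.7% of its KOPTK1 level, TRBC2 at 18.9%, DNTT at 20.8%, RAG1 at 22.3% and CD2 at 28.6%. Of the markers of other cells 8 of 9 were matched, with levels that summed to 2.89 in HPB-ALL and 3.66 in KOPTK1. Of 10 listed genes that separate T-ALL lines, only TAL1, LMO1 and LMO2 reached an average RPKM of 1 in either line. TAL1 (HPB-ALL 42.5, KOPTK1 19.2) and LMO1 (3.07, 1.13) stood higher in HPB-ALL, while LMO2 (0.175, 1.48) stood lower. TLX3, with 0.0381 and 0.119, lay near the bottom in both lines, 1.17 and 2.66 times the lowest CPM. No reference profile of either line was used, so the identity of the lines was not tested.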

How the data were processed

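RNA-seq of HPB-ALL and KOPTK1 cells was deposited as 2 tables, 1 per line. Per the labels, the authors used Trimmomatic 0.36, STAR 2.5.4b, Picard 2.18.7, featureCounts 1.6.2, edgeR 3.22.3 and hg38, with no order given. The value used here is the deposited average log2 CPM, which the authors computed over the 6 libraries of a line with a prior count. The deposited exon length is in bases. The deposited fold changes, F, p-values and FDR of the shRNA comparison were not used. A further 12 columns hold single libraries, but their headers are bare numbers that the labels do not explain. They were left out, so the planned per-library levels, likeness between genes over libraries, leave-one-out fits and shRNA contrast were not made, and depth, and with it the precision of a value, is unknown. Average RPKM was computed as the linear CPM per kilobase in Python 3.11.15, with numpy 2.4.6 and pandas 2.3.3. Symbols were matched for 95.9% of identifiers. A gene entered comparisons between lines at an average RPKM of at least 1 in either line, with 2-fold and 10-fold as limits and no test. The ratio step was tested on simulated data. The named genes are the 4 genes of the locus, their neighbours, and pathway, Polycomb, methionine and marker lists, and other rows of the stretch and of 9p were named after their values were seen. A gene planned for the pathway list is not reported here, and the counts leave it out. The genes and lists were chosen with earlier results of these data known. Promoter sequences came from RefSeq, and no protein sequences were used here.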

Additional observations from a re-analysis of the deposited data

How the results depend on the processing

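The 38 alternative values comprised 29 within 1.5 times of the reported one and 9 beyond it. No spread between libraries was available, so 1.5 times stood in for it. Scaling the levels of each table to the same fixed sum, as for TPM, moved all 8 levels. They became 0.169 in HPB-ALL and 7.77 in KOPTK1 for CDKN2A, 0.382 and 22.03 for CDKN2B, 0.2998 and 20.5 for CDKN2B-AS1, and 0.368 and 20.2 for MTAP, by construction the same factor for every gene of a table. With no filter on low values, 7043 genes in place of 2065 were lower in HPB-ALL by 2-fold or more, and the cause was not tested. Dividing by the median ratio of 0.987 over 22430 genes left the 4 percentages between 1.42% and 2.11%. Subtracting each table's lowest value, an alternative chosen after seeing the data, gave between 1.25% and 1.70%. No paired analysis was possible because no label explains the numbers that head the columns of single libraries, and for the same reason no library was left out and none of the alternatives planned for the shRNA contrast was run. Depth was not known, so low levels carry no interval.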

Other observations

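Across the 25479 genes with an average RPKM of at least 1 in either line, the log2 difference between HPB-ALL and KOPTK1 reached -6.16 on the lower side and 2.44 on the higher side. Lower by 2-fold or more were 2065 genes and higher by 2-fold or more were 970. No gene in these averages was therefore as far above KOPTK1 in HPB-ALL as the 4 genes of the locus were below it. None was higher in HPB-ALL by 10-fold or more, whereas 304 were lower by 10-fold or more. This imbalance covers all genes, so it is not read as a feature of the locus. Its cause was not tested, and whether the averages mix libraries that differ was not tested either.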
